A study of Mus musculus with 6 samples.

Results

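Matrix metalloproteinases (MMPs), ADAMs, ADAMTS proteins and the tissue inhibitors of metalloproteinases (TIMPs) were examined in 661W cells, a mouse line derived from cone photoreceptors, after exposure to light. The members are all rows of the deposited table whose gene symbol begins with Mmp, Adam or Timp followed by a digit, or with Adamts. The rule gave 84 of 24879 rows, which are 23 MMP genes, 33 ADAM genes, 24 ADAMTS and ADAMTS-like genes and 4 TIMP genes. In the Light group (3 libraries) 661W cells received 2000 ± 100 lux for 24 h (cold white light of a fluorescent lamp), and in the Dark group (3 libraries) they were kept in darkness for the same 24 h. Both groups are the 1 cell line, grown in DMEM with fetal bovine serum. No label says whether the libraries of a group came from separate cultures, so p-values measure the spread between these libraries, which may be technical.

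The 4 families act at the cell surface and in the matrix around cells. MMPs are zinc endopeptidases that cut collagens and other matrix proteins, and most are made as latent proenzymes that have to be activated. ADAMs are membrane-bound relatives that release growth factors, cytokines and receptor ectodomains from cells, and ADAMTS enzymes are secreted relatives that process procollagens, cleave large proteoglycans or act on other matrix proteins. ADAMTS-like proteins resemble ADAMTS enzymes but have no protease domain. TIMPs block the active site of MMPs, and TIMP3 also inhibits several ADAM and ADAMTS enzymes. In the retina TIMP3 is deposited in Bruch's membrane, and mutations of the human gene cause Sorsby fundus dystrophy.

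Levels are in FPKM (fragments scaled by transcript length and sequencing total), so genes can be set side by side. FPKM summed to 459198 to 471471 per Light library and to 411186 to 434372 per Dark library. The depth is unknown, since the files hold no read numbers, and counting intervals cannot be given. Libraries correlated at 0.978 to 0.995 within groups and at 0.939 to 0.984 between groups (Pearson's r of log2 values across genes, which are not independent replicates). Cone markers were scarce in the mRNA of the line. All 11 examined had a mean under 1 FPKM, and 5 of them were listed at 0 in every library. The summed level of the 11 was 0.950 to 1.37 FPKM in Light and 0.949 to 2.10 FPKM in Dark. The highest was Gnat2, above 0 in all libraries, at a mean of 0.940 FPKM in Light and 0.900 FPKM in Dark. Of 7 fibroblast or mesenchymal markers 5 were well expressed, and all 5 were lower in Light. The summed level of the 7 was 368 to 399 FPKM in Light against 756 to 874 FPKM in Dark, and the 2 remaining ones, Dcn and Lum, were under 1 FPKM on average. Both tested Müller glia markers of 5 were lower as well, and the leukocyte marker Cd68, the 1 tested of 5, was higher at 8.12 ± 1.29 FPKM in Light and 3.49 ± 0.569 FPKM in Dark (SD, n = 3 each). No marker of rods (6 genes), pigment epithelium, ganglion cells or endothelium (5 each) reached the level for testing. The part of these marker differences in the results on the members was not tested. In bulk RNA, fewer cells of one kind and less RNA per cell cannot be told apart.

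Light-exposed cells had less mRNA for 15 of these genes and more for 2. Of the 84 members 30 averaged 1 FPKM or more across the 6 libraries and were tested. The test was limma on log2(FPKM + 1) over the whole table, and a gene is called where its Benjamini-Hochberg adjusted p is under 0.05. A log2 change below is the Light mean of log2(FPKM + 1) minus the Dark mean, and it understates changes at low FPKM. Over all 11068 genes tested 35.6% were called, 19.2% higher and 16.4% lower in Light. Against these shares the members had 15 of 30 lower and 2 of 30 higher. Their median log2 change was -0.33, beside -0.01 over all genes tested. With median centring, members were 4 higher and 14 lower, while setting all libraries to 1 common FPKM sum gave 2 higher and 19 lower. That rescaling moved the median of all tested genes to -0.14, and it turned their split to 1212 higher and 2902 lower. Of the 17 called members 11 stayed called under every alternative that tested them, and all 17 kept their sign under all of these alternatives.

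**Figure D1:**
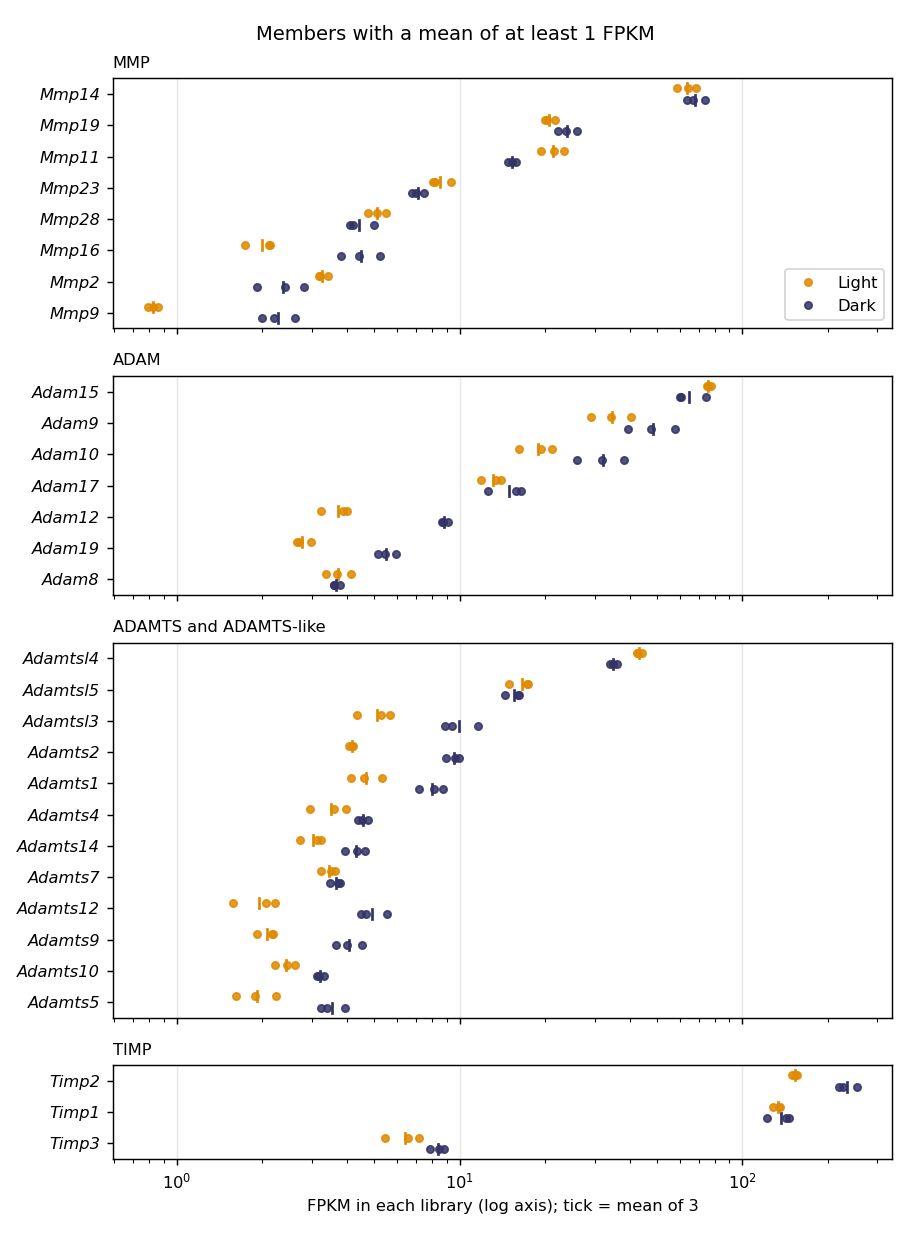
FPKM on a log axis for the 30 tested members, by family, with 3 Light libraries (orange, upper row) and 3 Dark libraries (blue, lower row) per gene and a tick at each mean. Timp2 and Timp1 stand highest, and most ADAMTS genes lie lower in Light without overlap.

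Lower calls were found in each of the 4 families, and higher calls in the MMP and ADAMTS-like genes. Of 12 tested ADAMTS and ADAMTS-like genes 8 were lower and 1 was higher in Light, with a median log2 change of -0.51. Of 7 tested ADAM genes 3 were lower and 4 not called (median -0.46), and of 3 tested TIMP genes 2 were lower and 1 not called (median -0.34). Of 8 tested MMP genes 2 were lower and 1 was higher. The MMP median was 0.04, and it stood at -0.09 with equal FPKM totals and at -0.13 with the trend with transcript length and GC content removed. Whether the families differ from one another was not tested. Among the 30 tested members the 3 Light values lay wholly below the 3 Dark values for 17 genes and wholly above them for 5. Over all tested genes 52.6% did not overlap in either direction, and for 24.4% Light lay below Dark.

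**Figure D2:**
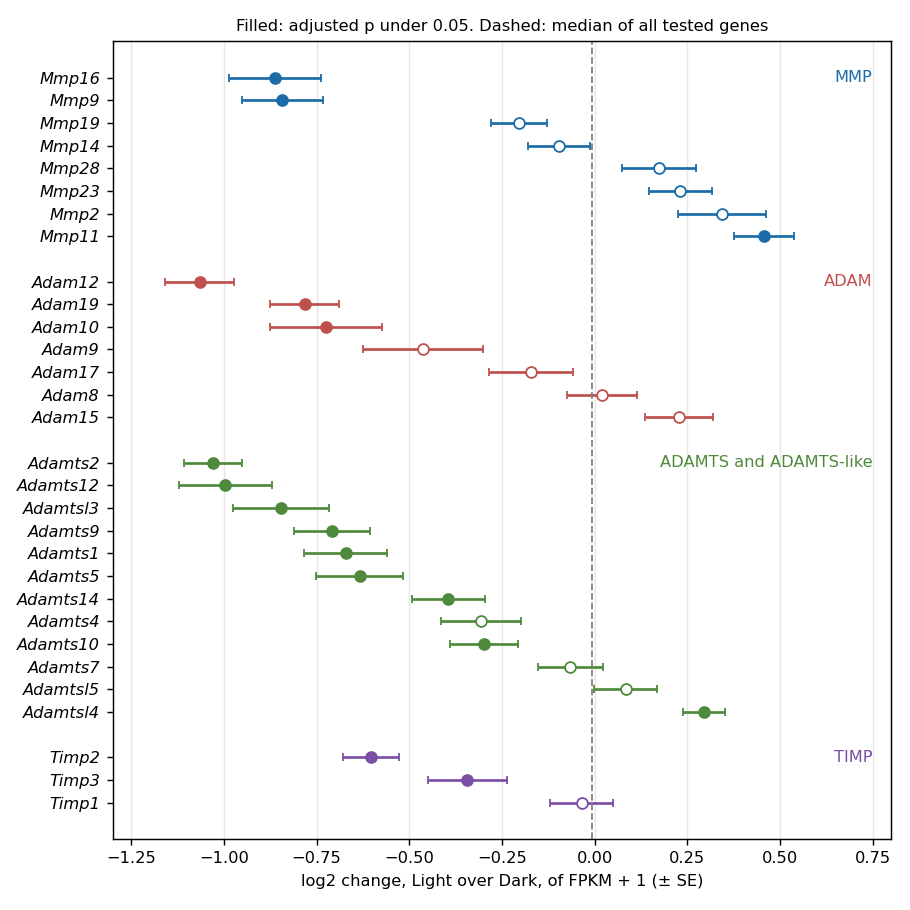
Log2 change of FPKM + 1, Light over Dark, with its standard error for each tested member, grouped by family. Filled points are the 17 genes with an adjusted p under 0.05, of which 15 lie left of the dashed median of all tested genes (-0.01) and 2 lie right of it.

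Summed levels show which genes carry each family. MMP genes together held 124, 130 and 130 FPKM in the Light libraries, against 128, 138 and 123 FPKM in the Dark libraries, and the ranges overlap. TIMP genes summed to 295, 291 and 292 FPKM in Light, against 351, 409 and 377 FPKM in Dark. The sum was lower in every Light library, and Timp2 made up 51.4% to 53.7% of it in Light and 60.0% to 62.7% in Dark. ADAM genes summed to 162, 143 and 155 FPKM in Light, against 192, 171 and 175 FPKM in Dark. ADAMTS proteases summed to 29.2, 25.9 and 28.2 FPKM in Light, against 49.6, 45.0 and 45.5 FPKM in Dark. For the ADAMTS-like genes the order was the other way round, at 65.7, 64.1 and 66.0 FPKM in Light against 62.8, 61.9 and 59.8 FPKM in Dark.

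Among the secreted MMPs, the gelatinase gene Mmp9 was lower in Light. Mmp9 had 0.858, 0.793 and 0.823 FPKM in Light, against 2.21, 2.62 and 2.01 FPKM in Dark, a log2 change of -0.84 ± 0.11 (SE, limma adjusted p = 0.00266). The 2 groups lie well apart, and the gene passed the filter through its Dark values, since its Light mean is under 1 FPKM. It is the 1 tested member of which that is true, and with a pseudocount of 0.1 its log2 change was -1.36. In mm10 Mmp9 spans chromosome 2 from 164940780 to 164955850. Mmp2, the other gelatinase gene, had 3.21, 3.18 and 3.42 FPKM in Light, against 1.92, 2.82 and 2.42 FPKM in Dark. Every Light library stood above every Dark library, but the log2 change of 0.34 ± 0.12 did not pass (adjusted p = 0.0579). It passed with quantile normalization (0.51, adjusted p = 0.0375), with median centring (0.40, 0.0477) and without Dark 2 (0.44, 0.0199).

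Mmp11, which encodes stromelysin 3, an MMP activated by furin inside the cell, was the 1 MMP gene called higher. It had 21.6, 23.4 and 19.4 FPKM in Light, against 15.3, 15.8 and 14.9 FPKM in Dark, a log2 change of 0.46 ± 0.08 (adjusted p = 0.00747). No Light value reached down to the Dark range. Its exons overlap those of Chchd10 on the opposite strand. The strand setting of the counting is not given in the sources used here, so reads of the 2 genes could not be told apart. Chchd10, a mitochondrial protein gene, stood at 8.62 ± 2.18 FPKM in Light and 1.77 ± 0.609 FPKM in Dark (SD, n = 3 each; log2 change 1.79 ± 0.21, limma adjusted p = 0.00197). Its part in the rise of Mmp11 was not tested. Exons of Mmp19, Mmp28, Adam8, Adam15, Adam19, Adamts7 and Adamts9 also overlap a gene on the opposite strand, so their levels carry the same limit. Mmp11 spans chromosome 10 from 75923222 to 75936496.

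Of the membrane-type MMP genes tested, Mmp16 was lower and Mmp14 did not pass. Mmp14, whose product cleaves collagen and activates the MMP2 proenzyme with TIMP2 as a bridge, was the most abundant MMP mRNA. It had 58.6, 64.0 and 68.3 FPKM in Light, against 67.0, 73.5 and 63.7 FPKM in Dark, and the groups overlapped (log2 change -0.10 ± 0.08, adjusted p = 0.380). Mmp14 made up 47.3% to 52.5% of the MMP sum in Light and 51.9% to 53.3% in Dark. It passed as lower with quantile normalization (-0.23, adjusted p = 0.0321), with equal FPKM totals (-0.24, 0.0378) and with the length and GC trend removed (-0.21, 0.0251). Mmp16, another membrane-type MMP gene, had 2.14, 1.74 and 2.12 FPKM in Light, against 5.22, 3.80 and 4.40 FPKM in Dark. Here each Light library was below each Dark library, and the log2 change was -0.86 ± 0.12 (adjusted p = 0.00379). Mmp16 spans chromosome 4 from 17852893 to 18119145.

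The other tested MMP genes were not called. Mmp19 averaged 20.7 ± 0.959 FPKM in Light and 24.0 ± 1.84 FPKM in Dark (SD, n = 3 each), with no overlap and a log2 change of -0.20 (limma adjusted p = 0.0685). It passed with equal FPKM totals (-0.34, adjusted p = 0.0124) and with the length and GC trend removed (-0.23, 0.0284). Mmp23, of a membrane-tethered MMP without the hemopexin domain, averaged 8.53 ± 0.698 FPKM in Light and 7.11 ± 0.362 FPKM in Dark, also with no overlap (log2 change 0.23, limma adjusted p = 0.0686). Its change stood at -0.04 with the length and GC trend removed, and it passed with quantile normalization (0.35, adjusted p = 0.0376) and median centring (0.29, 0.0497). Mmp28, the epilysin gene, averaged 5.11 ± 0.374 FPKM in Light and 4.42 ± 0.472 FPKM in Dark, and the groups overlapped (log2 change 0.17, limma adjusted p = 0.196).

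The remaining MMP genes were scarce, and most of them lie side by side. On chromosome 9, between 7272514 and 7699585, stand the 10 genes Mmp13, Mmp12, Mmp1b, Mmp3, Mmp1a, Mmp10, Mmp8, Mmp27, Mmp20 and Mmp7, among them the collagenase and stromelysin genes. None of the 10 reached a mean of 1 FPKM, and 3 were listed at 0 in all libraries. Mmp8, the gene of neutrophil collagenase, was the highest of them, with 0.940, 0.746 and 0.832 FPKM in Light, against 0.569, 0.502 and 0.452 FPKM in Dark. Mmp13, the gene of collagenase 3, had 0.277, 0.298 and 0.228 FPKM in Light, against 0.167, 0.194 and 0.0637 FPKM in Dark. In both genes the Light libraries stood above the Dark libraries at values under the filter. In a fit without the filter neither passed (log2 change 0.29, limma adjusted p = 0.0636 for Mmp8, and 0.15, 0.157 for Mmp13). Mmp3, the gene of stromelysin 1, had 0.358, 0.509 and 0.145 FPKM in Light, against 0.229, 0.125 and 0.113 FPKM in Dark, and its groups overlapped. Mmp10 was at 0 in 1 Dark library, and the highest value of any of these genes other than Mmp8 was 0.509 FPKM.

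The promoters of this cluster share elements that the well-expressed members mostly lack, which is why they are shown. RefSeq promoter windows of 300 bases (250 before the start and 50 after it, build GRCm38.p6) were found for 53 of the 84 members, Mmp9 not among them. They were searched on both strands for the AP-1 site TGANTCA, bound by dimers of FOS and JUN proteins, and for the TATA box core TATAAA. A gene with several windows counts as holding a motif found in any of them, and the motifs do not overlap in the stretches printed. Both motifs were present in 8 of the 10 cluster genes, and in 1 of the other 43 members. Where in the window a motif stood was not considered. Counted from the start, TATAAA began at -58 in Mmp20, -28 in Mmp1a and -7 in Mmp3, and in Mmp12 it lay after the start. In the cluster, Mmp8 held TATAAA only and Mmp27 held neither motif. Mmp12 and Mmp7 each also had a window with neither. Among all 27025 genes with a RefSeq window 2.08% held both, 8.97% the AP-1 site and 15.7% TATAAA. Of 20 tested members with a window, 1 held the AP-1 site (Adam19) and 1 held TATAAA (Adamts1). The 120 bases before the start of 5 cluster genes follow, 5′ to 3′ along the gene, with both motifs in capitals.
Mmp13, chr9:7272394-7272513, plus strand: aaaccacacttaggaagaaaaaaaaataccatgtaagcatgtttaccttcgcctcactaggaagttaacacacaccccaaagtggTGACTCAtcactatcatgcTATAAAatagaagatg
Mmp3, chr9:7445702-7445821, plus strand: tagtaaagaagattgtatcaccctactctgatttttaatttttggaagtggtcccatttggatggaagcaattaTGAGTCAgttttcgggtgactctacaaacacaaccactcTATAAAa
Mmp1a, chr9:7464021-7464140, plus strand: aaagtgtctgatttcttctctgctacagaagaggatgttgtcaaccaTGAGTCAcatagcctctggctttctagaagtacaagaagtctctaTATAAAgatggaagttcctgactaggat
Mmp10, chr9:7502222-7502341, plus strand: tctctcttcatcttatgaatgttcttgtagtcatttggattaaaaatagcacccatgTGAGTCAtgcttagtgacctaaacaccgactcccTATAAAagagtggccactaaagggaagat
Mmp7, chr9:7691970-7692089, plus strand: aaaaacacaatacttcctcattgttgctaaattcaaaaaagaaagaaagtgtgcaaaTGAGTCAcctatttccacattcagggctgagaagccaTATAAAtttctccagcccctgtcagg

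Windows of well-expressed members looked different. The median GC content was 67.0% in the windows of the 20 tested members, 42.8% in the chromosome 9 cluster and 52.8% over all genes with a window. The same 120 bases are given for Mmp11, which was called higher, and for Timp2 and Adamts1, which were called lower, with TATAAA in capitals where it occurs.
Mmp11, chr10:75932503-75932622, minus strand: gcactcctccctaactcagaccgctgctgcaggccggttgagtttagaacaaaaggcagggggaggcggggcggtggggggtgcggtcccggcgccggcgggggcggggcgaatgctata
Timp2, chr11:118355412-118355531, minus strand: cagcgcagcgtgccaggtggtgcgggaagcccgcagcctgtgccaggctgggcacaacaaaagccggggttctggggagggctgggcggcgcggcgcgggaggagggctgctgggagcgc
Adamts1, chr16:85803114-85803233, minus strand: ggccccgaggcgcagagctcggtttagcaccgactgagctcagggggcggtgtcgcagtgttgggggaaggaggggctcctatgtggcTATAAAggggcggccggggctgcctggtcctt
The AP-1 site was in none of these 3 windows. A match of letters is no evidence of binding, and a missing match says nothing about the factor.

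Genes for AP-1 and ETS proteins, known regulators of MMP transcription, were mostly higher in Light. Of 14 such genes on the list, which also holds 2 NF-kB subunit genes, 12 were tested, and 8 were higher and 3 lower (median log2 change 0.49). The shares over all tested genes were 19.2% higher and 16.4% lower. Fosl1, of the AP-1 protein FRA1, averaged 31.8 ± 3.11 FPKM in Light and 15.7 ± 0.927 FPKM in Dark (SD, n = 3 each; log2 change 0.98, limma adjusted p = 0.000564). Etv4, an ETS factor gene, rose by 1.51, Fosl2 by 0.56 and Jun by 0.49. Fos, Ets1 and Nfkb1 were lower, with log2 changes of -0.78, -0.56 and -0.43. Any link between these regulators and the chromosome 9 genes was not tested.

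Other MMP genes with a low level were Mmp15, Mmp17 and Mmp24, all of membrane-anchored enzymes, and they were above 0 in every library. Mmp15 had 0.484, 0.460 and 0.519 FPKM in Light, against 0.367, 0.312 and 0.271 FPKM in Dark, without overlap. Mmp17 and Mmp24 had overlapping groups, at 0.197 to 0.264 FPKM in Light and 0.196 to 0.276 FPKM in Dark for Mmp17, and at 0.0147 to 0.0906 FPKM in Light and 0.0160 to 0.0648 FPKM in Dark for Mmp24. Exons of Mmp24 overlap those of the far more abundant BC029722 on the opposite strand. Mmp21 and Mmp25 were listed at 0 in all libraries.

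Among the ADAM genes, Adam12, Adam19 and the sheddase gene Adam10 were lower in Light. Adam12, which encodes meltrin alpha, had 4.01, 3.22 and 3.88 FPKM in Light, against 8.75, 8.64 and 9.09 FPKM in Dark. The groups lie far apart, with a log2 change of -1.07 ± 0.09 (adjusted p = 0.000567). On this scale it is the lowest of the 30. On FPKM itself Mmp9 and Adamts12 were reduced more, by 63.8% and 60.0%, against 58.0% for Adam12. Adam19, which encodes meltrin beta, had 2.71, 2.67 and 2.97 FPKM in Light, against 5.97, 5.44 and 5.13 FPKM in Dark, again without overlap (log2 change -0.78 ± 0.09, adjusted p = 0.00177). In mm10 Adam12 spans chromosome 7 from 133883199 to 134232146, and Adam19 chromosome 11 from 46055992 to 46147343.

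Adam10, the gene of the protease that sheds NOTCH and cuts the amyloid precursor protein at the alpha site, had 21.2, 16.2 and 19.3 FPKM in Light, against 38.3, 26.1 and 32.0 FPKM in Dark. The groups did not overlap, but the Dark libraries spread widely, and the log2 change was -0.72 ± 0.15 (adjusted p = 0.0133). Its call was lost without Light 2 (-0.62, adjusted p = 0.0545), without Light 3 (-0.74, 0.0532) and without Dark 3 (-0.72, 0.0545). Adam10 spans chromosome 9 from 70678997 to 70780229.

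Adam17, of the sheddase that releases tumour necrosis factor and ligands of the EGF receptor, stood at 14.0, 11.9 and 13.4 FPKM in Light, against 16.4, 12.6 and 15.9 FPKM in Dark. Its groups overlapped (log2 change -0.17 ± 0.11, adjusted p = 0.256), and its change was 0.03 with the length and GC trend removed. Without Dark 2 it passed as lower (-0.28, adjusted p = 0.0318). Exons of Adam17 overlap those of Iah1 on the opposite strand, which had 13.9 FPKM in Light and 11.5 FPKM in Dark on average. Adam10 and Adam17 share many substrates, but whether their changes differ was not tested.

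Adam15 and Adam9 were the most abundant ADAM mRNAs. Adam15 had 75.3, 74.8 and 77.1 FPKM in Light, against 59.9, 74.2 and 60.5 FPKM in Dark. Light lay above Dark in all libraries, though Dark 2 came close, and the log2 change of 0.23 ± 0.09 did not pass (adjusted p = 0.0862). Without Dark 2 it did (0.33, adjusted p = 0.00555). Adam9 had 40.4, 29.2 and 34.3 FPKM in Light, against 57.9, 39.4 and 47.5 FPKM in Dark. The groups overlapped and the log2 change was -0.46 ± 0.16 (adjusted p = 0.0594). It passed as lower with quantile normalization (adjusted p = 0.0447), equal FPKM totals (0.0418), the length and GC trend removed (0.0432), without Light 1 (0.0426) and without Dark 2 (0.0167). Adam8, best known from leukocytes, averaged 3.73 ± 0.374 FPKM in Light and 3.66 ± 0.110 FPKM in Dark (SD, n = 3 each; log2 change 0.02, limma adjusted p = 0.874).

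Most other ADAM genes were at or near 0. Of 33 members 15 were listed at 0 in all libraries, among them the sperm protein genes Adam2 and Adam3. Adam9 stands in a row of 5 ADAM genes on chromosome 8, between 24602246 and 25016927. Its neighbours Adam18 and Adam3 were at 0 in every library, and Adam5 and Adam32 were at 0 in at least 1 library and never above 0.0706 FPKM. A second group on chromosome 8 holds 7 genes between 40675077 and 43710049, of which 6 were at 0 in all libraries and 1, Adam39, had 0.0247 FPKM in a single library. Of the scarce ones, Adam11 had 0.253, 0.353 and 0.314 FPKM in Light, against 0.402, 0.483 and 0.391 FPKM in Dark, and Adam1a had 0.297, 0.279 and 0.185 FPKM in Light, against 0.511, 0.408 and 0.395 FPKM in Dark. Both lie lower in Light in every library, and neither passed in the fit without the filter (limma adjusted p = 0.259 for Adam11 and 0.121 for Adam1a). Exons of Adam1a overlap those of Mapkapk5. Adam1b, Adam4 and Adam22, above 0 in all libraries, never exceeded 0.140 FPKM, and their groups overlapped.

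ADAMTS proteases formed the group with the most called members, 7 lower of 9 tested. The procollagen N-proteinase gene Adamts2, whose product trims the amino ends of fibrillar procollagens, had 4.20, 4.07 and 4.18 FPKM in Light, against 9.65, 9.99 and 8.92 FPKM in Dark. Its Light libraries were nearly alike and far below Dark, with a log2 change of -1.03 ± 0.08 (adjusted p = 0.000350). Adamts14, a second gene of this activity, had 2.72, 3.24 and 3.13 FPKM in Light, against 4.62, 3.94 and 4.34 FPKM in Dark, without overlap (log2 change -0.39 ± 0.10, adjusted p = 0.0232). Adamts3, the third, was listed at 0 in all libraries. The call of Adamts14 was lost with quantile normalization (-0.23, adjusted p = 0.136) and without any one of Light 1 (0.0582), Light 2 (0.0597), Light 3 (0.0746), Dark 1 (0.0608) or Dark 3 (0.0874). Adamts2 spans chromosome 11 from 50602084 to 50807573.

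Partners of procollagen processing were also measured. Of 7 genes on the list 3 were tested, with 2 lower and 1 not called. The share called lower over all tested genes was 16.4%. Bmp1, of the procollagen C-proteinase, averaged 24.2 ± 0.520 FPKM in Light and 29.7 ± 1.16 FPKM in Dark (SD, n = 3 each; log2 change -0.29, limma adjusted p = 0.0132). Pcolce, of its enhancer protein, averaged 187 ± 1.95 FPKM in Light and 246 ± 15.6 FPKM in Dark (log2 change -0.39, limma adjusted p = 0.00778). Pcolce2 had a log2 change of 0.17 and was not called (limma adjusted p = 0.0844).

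Genes of the enzymes that cleave aggrecan and versican were lower in part. Adamts1 had 5.32, 4.12 and 4.58 FPKM in Light, against 8.76, 7.19 and 8.11 FPKM in Dark (log2 change -0.67 ± 0.11, adjusted p = 0.00622). Adamts5 had 2.25, 1.62 and 1.89 FPKM in Light, against 3.95, 3.23 and 3.40 FPKM in Dark (log2 change -0.63 ± 0.12, adjusted p = 0.00935). Both are neighbours on chromosome 16, 53059 bases apart on the minus strand, between 85793827 and 85901828, and in both every Light library lay below every Dark library. Adamts9 averaged 2.09 ± 0.153 FPKM in Light and 4.06 ± 0.430 FPKM in Dark (log2 change -0.71, limma adjusted p = 0.00392). Adamts4 had 3.60, 2.96 and 3.97 FPKM in Light, against 4.39, 4.76 and 4.51 FPKM in Dark. Its groups did not overlap, but its log2 change of -0.31 ± 0.11 did not pass (adjusted p = 0.0609). It passed with equal FPKM totals (-0.42, adjusted p = 0.0276) and with the length and GC trend removed (-0.35, 0.0240).

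Adamts12 was lower as well. It had 2.07, 1.58 and 2.23 FPKM in Light, against 5.55, 4.47 and 4.67 FPKM in Dark, a log2 change of -0.996 ± 0.12 (adjusted p = 0.00225). Adamts7, the nearest relative of Adamts12, averaged 3.46 ± 0.191 FPKM in Light and 3.66 ± 0.150 FPKM in Dark (SD, n = 3 each), with overlap (log2 change -0.06, limma adjusted p = 0.567). Whether these relatives differ in their change was not tested. Adamts10, whose product binds fibrillin, averaged 2.44 ± 0.196 FPKM in Light and 3.22 ± 0.0969 FPKM in Dark (log2 change -0.30, limma adjusted p = 0.0424). That call was lost with quantile normalization (-0.12, adjusted p = 0.365), median centring (-0.24, 0.0679), no filter (0.0557), and without any one of Light 1 (0.0560), Light 2 (0.112), Light 3 (0.146), Dark 1 (0.106) or Dark 3 (0.114). Under the filter, Adamts6 had 0.381, 0.201 and 0.324 FPKM in Light, against 0.898, 0.641 and 0.749 FPKM in Dark. Adamts16 was the other scarce one above 0 in all libraries, at 0.203, 0.167 and 0.232 FPKM in Light, against 0.154, 0.129 and 0.149 FPKM in Dark. The groups of each stood apart, Adamts6 lower and Adamts16 higher in Light. Adamts8 and Adamts19 were listed at 0 in all libraries.

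ADAMTS-like genes went both ways. Adamtsl4, whose product binds fibrillin 1 and whose human gene is mutated in lens dislocation, had 42.4, 44.2 and 42.7 FPKM in Light, against 34.1, 35.9 and 34.9 FPKM in Dark. All Light values stood above all Dark values, with a log2 change of 0.30 ± 0.06 (adjusted p = 0.0101). The call was lost without Light 2 (adjusted p = 0.0505), Light 3 (0.0533) or Dark 3 (0.0523), and the change was 0.15 with equal FPKM totals. Adamtsl3 had 5.66, 4.33 and 5.28 FPKM in Light, against 11.7, 8.85 and 9.38 FPKM in Dark, lower in every library (log2 change -0.85 ± 0.13, adjusted p = 0.00473). Adamtsl5 averaged 16.6 ± 1.41 FPKM in Light and 15.6 ± 0.952 FPKM in Dark, with overlap (log2 change 0.08, limma adjusted p = 0.442). Adamtsl1 stayed just under the filter, with 0.275, 0.502 and 0.522 FPKM in Light, against 0.876, 1.04 and 1.05 FPKM in Dark. In the fit without the filter it and Adamts6 were the only 2 called, both lower, of the 31 members under the filter that were above 0 in any library (log2 change -0.48, adjusted p = 0.0333 for Adamtsl1, and -0.44, 0.0350 for Adamts6).

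The mRNAs of matrix proteins that ADAMTS enzymes cleave were mostly lower as well. Of 14 on the list 7 were tested, of which 5 were lower and 1 higher, with a median of -0.83. Among all tested genes 16.4% were lower and 19.2% higher. Bgn, which encodes the proteoglycan biglycan, averaged 4.07 ± 0.310 FPKM in Light and 11.5 ± 0.817 FPKM in Dark (SD, n = 3 each; log2 change -1.3, limma adjusted p = 0.000256). Ltbp1, of a protein that binds latent TGF-beta, fell by 0.88, Fn1, of fibronectin, by 0.83 and Thbs1 by 2.16. Vcan, of the hyaluronan-binding proteoglycan versican, averaged 14.2 FPKM in Light and 17.8 FPKM in Dark and was not called (log2 change -0.30, limma adjusted p = 0.188). Acan, of aggrecan, was under 1 FPKM on average. The exception was Nid1, of the basement membrane protein nidogen 1, at 89.5 ± 9.06 FPKM in Light and 55.2 ± 2.02 FPKM in Dark (log2 change 0.68, limma adjusted p = 0.00218).

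Timp2 was the most abundant member and was lower in Light. It had 153, 150 and 156 FPKM in Light, against 220, 254 and 226 FPKM in Dark, a log2 change of -0.60 ± 0.08 (adjusted p = 0.00218). No Light library came near the Dark range, and Timp2 stayed called under every alternative, with changes between -0.75 and -0.54. Timp2 spans chromosome 11 from 118301069 to 118355740. Timp1, the second most abundant member, had 135, 136 and 129 FPKM in Light, against 122, 147 and 143 FPKM in Dark. Its groups overlapped fully (log2 change -0.04 ± 0.08, adjusted p = 0.753), and the change was 0.02 with median centring. With quantile normalization (-0.20, adjusted p = 0.0484) and with the length and GC trend removed (-0.30, 0.00479) Timp1 passed as lower.

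Timp3 had 7.19, 5.46 and 6.58 FPKM in Light, against 8.84, 7.84 and 8.43 FPKM in Dark, without overlap (log2 change -0.34 ± 0.11, adjusted p = 0.0426). The call was lost with no filter (adjusted p = 0.0822), quantile normalization (-0.21, 0.0831) and the length and GC trend removed (-0.19, 0.0633), and without any one of Light 2 (-0.25, 0.127), Light 3 (0.107), Dark 1 (0.0965) or Dark 3 (0.124). Timp4 was at 0 in 4 of the 6 libraries. Timp1, Timp3 and Timp4 lie within the synapsin genes Syn1, Syn3 and Syn2 on the opposite strand, all of which averaged under 1 FPKM in both groups.

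Genes that carry, activate or inhibit these proteases moved in different directions. Of 9 genes for carriers of ADAM10 and ADAM17 (tetraspanins, iRhoms and FRMD8) 7 were tested, of which 4 were higher and 3 not called (median 0.34). Over all tested genes 19.2% were higher and 16.4% lower. Tspan15, a tetraspanin that accompanies ADAM10, averaged 7.70 ± 0.320 FPKM in Light and 5.49 ± 0.501 FPKM in Dark (SD, n = 3 each; log2 change 0.42, limma adjusted p = 0.0133). Tspan17 rose by 0.46, Tspan5 by 0.40 and Frmd8 by 0.34, while Rhbdf2, of an iRhom, had a log2 change of 0.19 (limma adjusted p = 0.0511). Of 8 proprotein convertase genes 3 were tested, and Furin was the 1 called, at 22.9 ± 1.18 FPKM in Light and 19.3 ± 1.51 FPKM in Dark (log2 change 0.23, limma adjusted p = 0.0490).

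In the plasminogen activator system, which cuts several MMP proenzymes, 5 of 10 genes were tested, with 2 higher and 1 lower. The shares over all tested genes were 19.2% higher and 16.4% lower. Plaur, of the urokinase receptor, averaged 27.1 ± 1.67 FPKM in Light and 10.9 ± 1.01 FPKM in Dark (SD, n = 3 each; log2 change 1.24, limma adjusted p = 0.000258). Plau, of urokinase itself, was lower, at 5.29 ± 0.546 FPKM in Light and 8.51 ± 0.571 FPKM in Dark (log2 change -0.60, limma adjusted p = 0.00545). Of 12 genes for other inhibitors or inducers of metalloproteinases 4 were tested and 2 called, both lower: Lrp1, of a receptor that clears MMPs and TIMPs, with a log2 change of -0.61, and Cd44, of the hyaluronan receptor, with -0.35. Reck, of a membrane-anchored MMP inhibitor, averaged 1.11 FPKM in Light and 1.85 FPKM in Dark and did not pass (log2 change -0.43, limma adjusted p = 0.0628).

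The mRNAs of ADAM10 and ADAM17 substrates were lower more often than higher. Of 28 on the list 24 were tested, with 12 lower, 2 higher and a median of -0.22. Over all tested genes 16.4% were lower and 19.2% higher. Cd44 and Lrp1 are on this list too. Cx3cl1, the membrane chemokine fractalkine, averaged 26.0 ± 0.832 FPKM in Light and 53.4 ± 4.81 FPKM in Dark (SD, n = 3 each; log2 change -1.01, limma adjusted p = 0.000350). Nrg1, of the growth factor neuregulin 1, fell by 0.99, and the receptor genes Notch2 and Notch3 fell by 0.46 and 0.45. Areg, of the EGF receptor ligand amphiregulin, averaged 3.51 ± 0.164 FPKM in Light and 1.36 ± 0.202 FPKM in Dark (log2 change 0.94, limma adjusted p = 0.00135). Tnfrsf1a, of a tumour necrosis factor receptor, rose by 0.34.

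**Figure D3:**
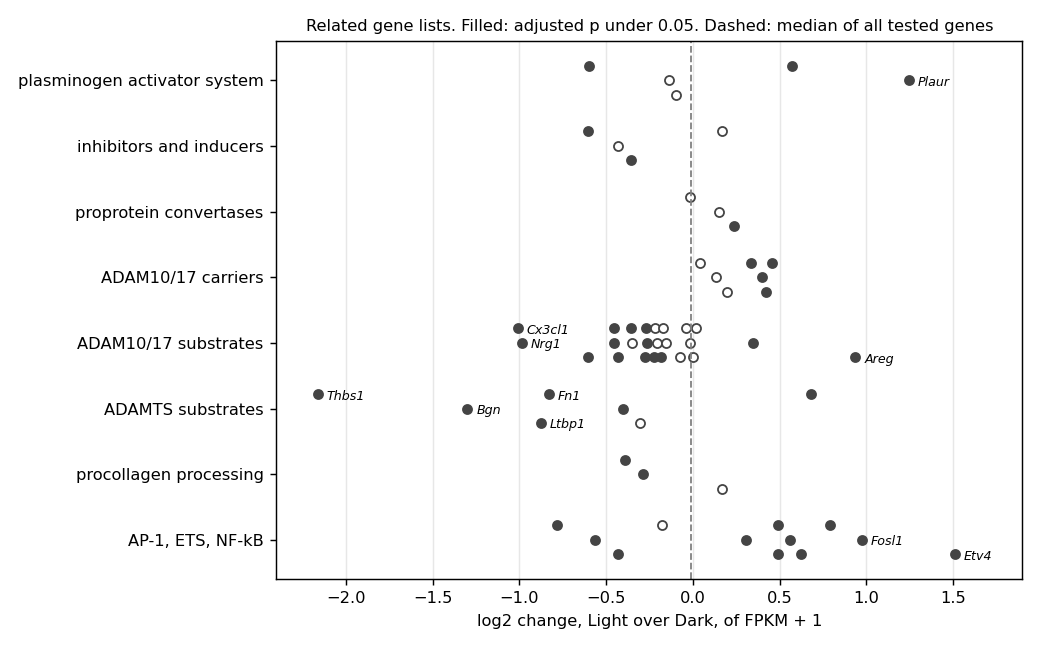
Log2 change of FPKM + 1, Light over Dark, for each tested gene of 8 related lists; filled points have an adjusted p under 0.05 and the dashed line is the median of all tested genes (-0.01). Carriers of ADAM10 and ADAM17 lie right of the line, and most ADAMTS substrates lie left of it.

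Members with long transcripts had the lower values in Light. The longest annotated transcript had a median of 5188 bases in the 15 members called lower, and of 3669 bases in the other 15 tested. Across the 30 tested members the Spearman correlation of log2 change with transcript length was -0.72 and with GC content 0.61. Over all tested genes with a known transcript these were -0.46 and 0.47. The points share libraries, and no p is given. The longest 10% of tested genes had a median log2 change of -0.37, the shortest 10% of 0.23, and 6 of the 30 members belong to the longest 10%.

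When the trend with transcript length and GC content was taken out of every library, 18 members were lower and 2 higher. Adamts5, with the longest transcript of the 30 (10791 bases), changed from a called to an uncalled gene, at -0.07 (adjusted p = 0.539), and Timp3 also lost its call. Changes of other called members shrank by more than 1.5 times and kept their calls, with Adam10 at -0.39, Mmp16 at -0.50, Adamts12 at -0.61, Adamts9 at -0.43 and Mmp11 at 0.26. The changes of Mmp9 and Timp2 became larger in size after removal, at -0.97 and -0.69, and that of Adamts2 shrank less, to -0.88. What lies behind the trend was not tested.

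**Figure D4:**
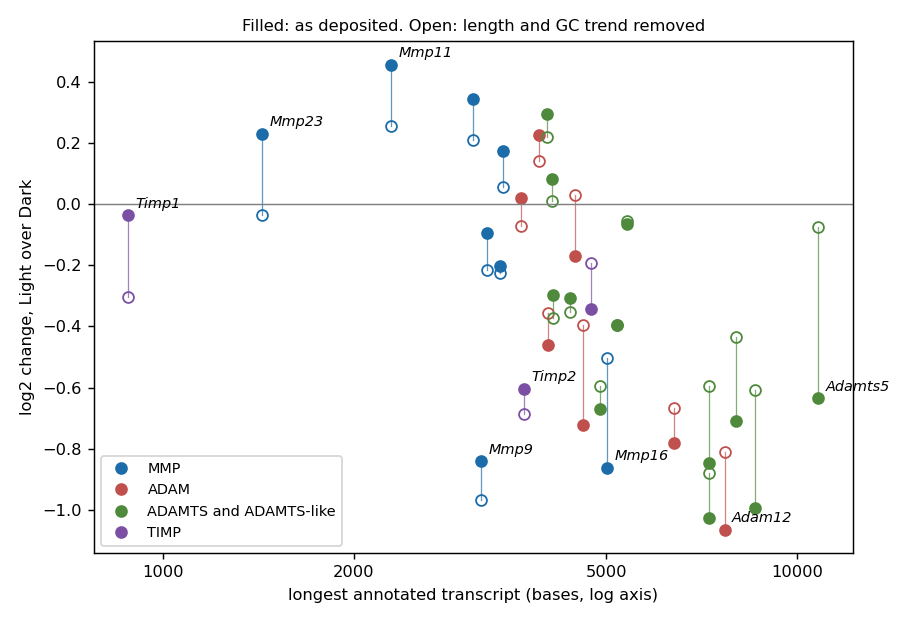
Log2 change, Light over Dark, of the 30 tested members against the length of their longest annotated transcript (bases, log axis), coloured by family; filled points are as deposited and open points are after removal of the trend with length and GC content. Adamts5 stands at -0.63 as deposited and at -0.07 after removal, while Mmp9 and Timp2 move little.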

How the data were processed

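RNA of 661W cells was extracted with TRIzol and made into libraries with a dual-mode mRNA kit, per the labels' protocols. The submitters' processing notes name HISAT2 and mm10. The values are the authors' FPKM for each gene, as the file headers call them. The sources used here do not give the FPKM program, annotation, strand setting or depth. Low values showed no whole-read steps: the commonest ratio between 2 libraries, within 0.1%, covered 0.58% to 0.77% of 520 low genes.

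Groups came from the sample titles. Genes averaging 1 FPKM or more were tested on log2(FPKM + 1), pseudocount 1, with limma 3.58.1 in R 4.3.3 (trend and robust eBayes, 2-sided, group as the only term, Benjamini-Hochberg adjustment over all 11068). The procedure was tested on simulated data with noise drawn independently for each gene. Deviations of the real libraries are shared across genes, so the simulation cannot show how the procedure behaves on them. Coordinates, transcript lengths and GC content are from GENCODE M21 (mm10), promoters from RefSeq on GRCm38.p6.

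All tested members are named, as are scarcer ones above 0 in all libraries, and up to 4 called genes per related list and direction. The genes at 0 or in a cluster, Chchd10, Gnat2, Notch2, Notch3 and uncalled list genes were named after their values were seen. One called gene of a related list is not reported here. The members and lists were chosen with earlier results of these data known. Alternatives were a pseudocount of 0.1, no filter, a filter at 5 FPKM, quantile normalization, median centring, equal FPKM totals, removal of each library's loess trend (span 0.5) with length and GC content, the replicate number as a block, and each library left out. A fit without Light 2 and Dark 1 was added after seeing the data.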

Additional observations from a re-analysis of the deposited data

How the results depend on the processing

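The count of members called higher, 2, was 4 with quantile normalization, 4 with median centring, 5 with the replicate block, 1 without Light 2 and Dark 1, and 1 to 4 with each library left out. The count called lower, 15, was 7 among genes averaging 5 FPKM or more, where 17 members were tested, and 11 to 17 with each library left out. The MMP median of 0.04 turned to -0.091 with equal FPKM totals and to -0.13 with the length and GC trend removed. The median of ADAMTS and ADAMTS-like genes together, -0.51, was -0.63 with a pseudocount of 0.1, -0.67 with the filter at 5 FPKM, -0.34 with quantile normalization, -0.62 with equal FPKM totals and -0.38 with the trend removed. The ADAM median of -0.46 ranged between -0.60 and -0.21, the value without Light 2 and Dark 1. The TIMP median of -0.34 ranged between -0.47 and -0.21, and it stood at -0.21 both with quantile normalization and without Light 2 and Dark 1. The cause of these shifts was not tested. Over all genes the count called, 3938, was 2606 with no filter, 6690 with the replicate block, 1427 without Light 2 and Dark 1, and 1228 to 5874 with each library left out. Same-numbered Light and Dark libraries deviated together for numbers 1 and 2 (r = 0.69 and 0.64) but not for 3 (r = -0.09). Light 1 with Dark 2 gave r = -0.68, and Light 2 with Dark 1 gave -0.67. Deviations from a group mean are not independent, so these values cannot settle whether the numbers pair the libraries. No label gives a pairing, and the main fit used none. With the replicate block all 17 calls were kept and 7 members were added: Mmp2 (limma adjusted p = 0.0123), Mmp23 (0.0275) and Adam15 (0.0175) as higher, and Mmp19 (0.0150), Adam9 (2.2e-05), Adam17 (0.0404) and Adamts4 (0.0169) as lower. With no depth given, the values under 1 FPKM cannot be weighed.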
